A study of Danio rerio with 18 samples.

Results

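The genes described here are those induced by interferons in zebrafish and the transcription factors that carry or tune the interferon signal, measured as messenger RNA in adult ventricles. They were chosen by a rule on the gene symbol, with earlier results of these data known. The rule took every gene of the count tables with a fitting symbol, ignoring case. Fitting symbols begin with ifi44, ifit, isg15, isg20, rsad2 or b2m, or with gbp, irf or stat and a digit. Those beginning with tap1 or tap2 and those from mxa to mxg also fit. This gave 69 of 32520 genes, of which 53 had enough counts to be tested. Of the 69, 13 are irf factors and 4 are IRF2-binding co-regulators whose symbols also begin with IRF2, 8 are stat factors, 7 are mx genes, 14 belong to the ifi44 family, 8 to the ifit family and 4 to the gbp family. A further 2 are ifitm genes, 4 are isg15, isg20, isg20l2 and RSAD2, and 5 serve antigen presentation.

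The study's title sets heart tumours driven by an oncogene beside heart regeneration. The 5 groups had 3 libraries each. Fish of all groups carried cmcl2:Gal4-ERT2 (spelled so in the strain labels, and cmlc2 in the sample titles), a Gal4 activator under a promoter of cardiomyocytes that 4-hydroxytamoxifen (4-OHT) switches on. The 7 dpci group carried that driver alone, received no drug and was sampled 7 days after cryoinjury, which kills part of the ventricle by cold and which zebrafish repair. The GFP-HRAS rapamycin and GFP-HRAS DMSO groups added UAS:GFP-HRAS, which joins the oncogene HRAS to green fluorescent protein. The RFP rapamycin and RFP DMSO groups added UAS:RFP, a red fluorescent protein. All 4 transgenic groups were given 4 pulses of 2.5 uM 4-OHT. The rapamycin groups received 0.5 uM of this TOR kinase inhibitor, and the DMSO groups the vehicle at 0.05%, over 16 days. The transgenes were thus switched on in cardiomyocytes, while the libraries hold RNA of every cell type of the ventricle. Whether each library is 1 fish, a pool or a repeat of the same tissue is not stated in the labels, so p-values measure only the spread between these libraries.

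Interferons are secreted by cells that sense viral nucleic acid and by activated lymphocytes. Type I interferon and interferon gamma act through receptor-bound kinases on stat factors, and the type I complex also holds IRF9. Both then switch on a shared set of genes: mx GTPases, ifit RNA-binding proteins, the ubiquitin-like isg15, guanylate-binding proteins (gbp) and the machinery that loads peptides onto MHC class I. Several IRF factors are induced in turn, and in mammals IRF8 and IRF5 are also standing factors of macrophages and other leukocytes.

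Levels are given as CPM, counts scaled to a common library size with trimmed-mean (TMM) factors, and as mean ± SD with n = 3. CPM does not correct for gene length, so levels are compared between groups and not between genes. Library totals ran from 15861618 to 20003711 counts. The word called marks an adjusted p under 0.05 in edgeR's quasi-likelihood test with Benjamini-Hochberg adjustment over all genes tested, and log2 fold changes are given ± SE. Cardiomyocyte markers were abundant in every library. Their sum over 12 genes was 59317.5 to 60644 CPM in 7 dpci, 51254 to 61331 in GFP-HRAS rapamycin, 26035 to 34458 in GFP-HRAS DMSO, 52034 to 77361 in RFP rapamycin and 48535 to 54740 in RFP DMSO.

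Under DMSO, 23 interferon-induced genes and factors were higher in GFP-HRAS than in RFP hearts, and no stat factor was called higher. Among the genes that rose were mxa to mxd, 4 ifi44 genes, 4 ifit genes, gbp1 and gbp2, isg15, the peptide transporter genes tap2a and tap2t and the factors IRF8, IRF5 and irf10. Of the 53 tested genes, 23 (43.4%) were called higher, against 24.9% of all 16044 genes tested. In the other direction 8 (15.1%) were called lower, against 22.6% of all genes, and 47.5% of all genes were called in either direction. The median log2 fold change was 0.73 over the 53 genes and 0.02 over all genes. In each of the 23 genes, all 3 GFP-HRAS DMSO libraries lay above all 3 RFP DMSO libraries. Genes picked by such a call are mostly separated in this way, so the separation adds no support. The share of all genes separated so was not counted. In a check over all 15 libraries, ifi44c2, ifit9 and ifit10 of the 53 passed the filter on low counts only through GFP-HRAS DMSO. They thus had to differ, and 20 of the other 50 were called higher. That check kept the 7 dpci libraries, which are not in the fit used for this comparison. In the other transgenic libraries ifi44a6 and ifi44a8 reached at most 0.667 and 0.672 CPM. Both may have passed that fit only through GFP-HRAS DMSO, and both are among the 20. With library totals in place of TMM scaling, the median over all genes became 0.49 and the calls among the 53 became 28 higher and 2 lower. The same change took the calls over all genes to 6084 higher and 1812 lower, from 3991 and 3630.

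**Figure D1:**
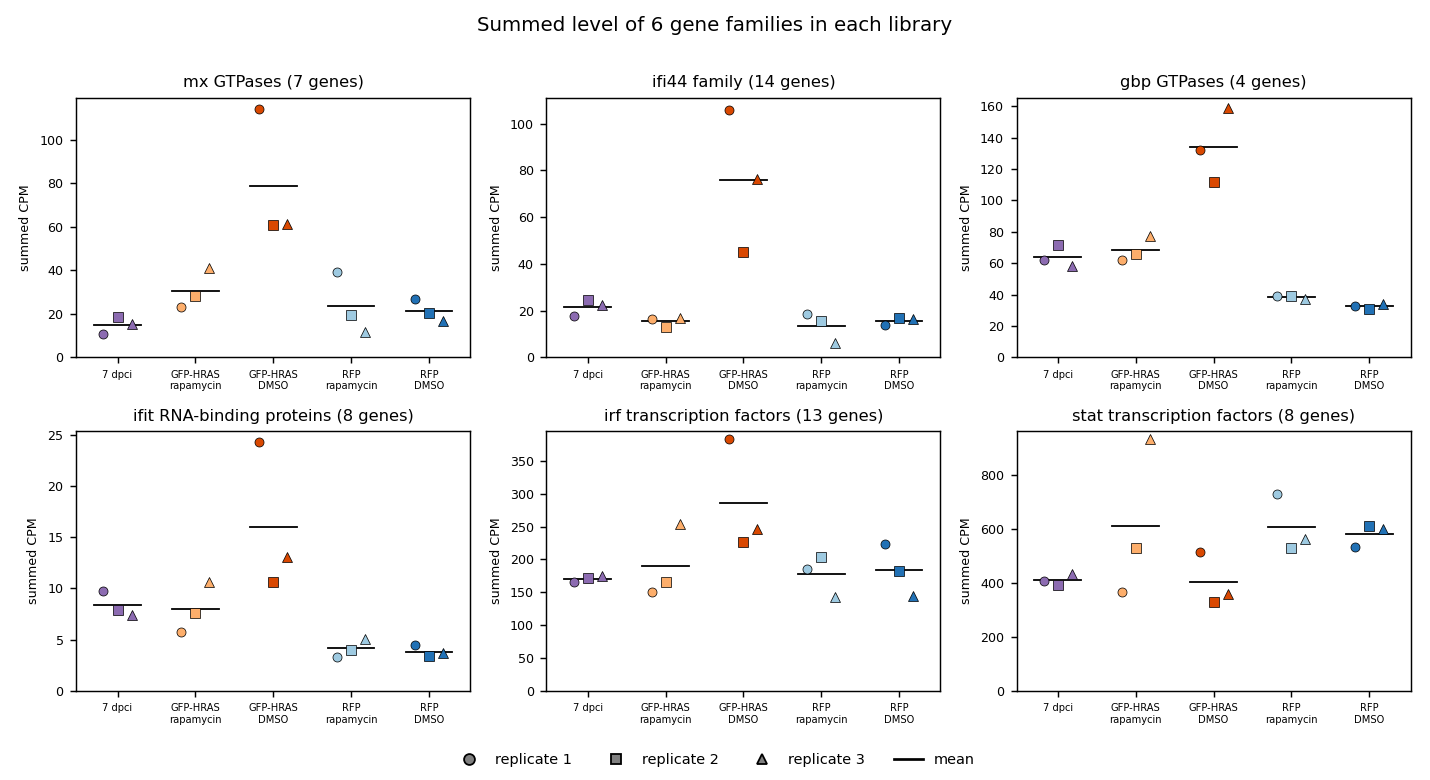
Summed CPM of all genes of 6 families in each library, with symbols for the replicate number and a line at the mean of 3 libraries; the panel titles give the number of genes summed. The mx, ifi44 and gbp sums of the 3 GFP-HRAS DMSO libraries lie above those of every other library, the stat sums do not, and the highest stat sum is that of GFP-HRAS rapamycin replicate 3.

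Markers of several cell types moved with this result. The summed level of 22 macrophage and general leukocyte genes was 3737 to 5359 CPM in GFP-HRAS DMSO and 138 to 400 in RFP DMSO. This sum rests largely on cd74a, with 198404 counts in GFP-HRAS DMSO and 4261 in RFP DMSO, the most of the list in every group. Next in GFP-HRAS DMSO came cd74b, with 47124 counts (1036 in RFP DMSO), and LCP1, with 18636 (1037 in RFP DMSO). Later sums of these markers include the same genes, and so follow cd74a and cd74b in large part. Whether cd74a and cd74b themselves respond to interferon in these hearts was not tested. Of the 13 tested, 11 rose and no gene was called lower, with a median log2 fold change of 3.06. Of 3 genes with the symbol MPEG1, a macrophage marker, ENSDARG00000043093 averaged 20.1 ± 2.12 CPM in GFP-HRAS DMSO and 32.8 ± 39.2 CPM in RFP DMSO. It was not called (-0.70 ± 0.80, adjusted p = 0.49). ENSDARG00000055290 had 29 counts in GFP-HRAS DMSO and 4 in RFP DMSO, and ENSDARG00000078569 had 0 counts in every library. T cell markers summed to 29.0 to 85.2 CPM in GFP-HRAS DMSO and 4.34 to 8.09 in RFP DMSO, and cytotoxic cell markers to 71.8 to 516 CPM in GFP-HRAS DMSO and 1.16 to 1.53 in RFP DMSO. The cytotoxic sum in GFP-HRAS DMSO rests largely on the perforin gene prf1.8, with 12856 counts there and 16 in RFP DMSO. Another perforin gene, prf1.1, had 0 counts throughout. Fibroblast markers summed to 777 to 1787 CPM in GFP-HRAS DMSO and 195 to 230.0 in RFP DMSO, with 5 of 7 higher and 1 lower. Endothelial markers summed to 439 to 461 CPM in GFP-HRAS DMSO and 1362 to 1602 in RFP DMSO, with 5 of 5 lower, and 7 of 11 cardiomyocyte markers were lower. The 1 B cell marker tested was higher. Of 6 neutrophil markers tested, 2 were higher and 1 lower, and of 3 erythrocyte markers tested, 2 were lower. Beside these counts, 24.9% of all genes were called higher and 22.6% lower. The part of these cell types in the changes of the interferon genes, higher or lower, was not tested. In these bulk samples a change in the number of cells of a type and a change in RNA per cell cannot be told apart.

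Among the stat factors, which carry the signal from receptor to nucleus, no gene of 8 was called higher in GFP-HRAS DMSO than in RFP DMSO. Called lower was 1 of the 8 (12.5%). Of all genes, 24.9% were called higher and 22.6% lower. At an unadjusted p under 0.05, which 55.0% of all genes passed, also 0 were higher and 3 lower. DESeq2 called 0 higher and 3 lower, against 27.5% and 23.7% of all genes. stat2, a factor of the type I response, was at 2.6, 0.818 and 1.75 CPM in GFP-HRAS DMSO and at 2.87, 3.91 and 7.11 CPM in RFP DMSO. Its groups did not overlap, yet the difference missed the threshold (-1.42 ± 0.60, adjusted p = 0.069).

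STAT4, which in mammals serves interleukin-12 and type I interferon in lymphocytes, was the stat gene called lower. It had 76.4, 58.6 and 46.5 CPM in GFP-HRAS DMSO and 114, 165 and 168 CPM in RFP DMSO. The groups did not overlap (-1.29 ± 0.27, adjusted p = 0.0033). STAT3, the factor of interleukin-6 signalling, had 120, 97.1 and 117 CPM in GFP-HRAS DMSO and 132, 133 and 99.9 CPM in RFP DMSO, and these ranges overlapped (adjusted p = 0.807). stat5b, a factor of growth hormone and cytokine receptors, had 9.76, 10.8 and 12.3 CPM in GFP-HRAS DMSO and 14.7, 12.8 and 13.1 CPM in RFP DMSO (adjusted p = 0.194). Its relative stat5a, whose nearest neighbour in the RefSeq annotation is STAT3, gave -1.44 ± 0.56 (adjusted p = 0.0538), and stat6, the factor of interleukin-4, gave -0.32 ± 0.36 (adjusted p = 0.484).

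**Figure D2:**
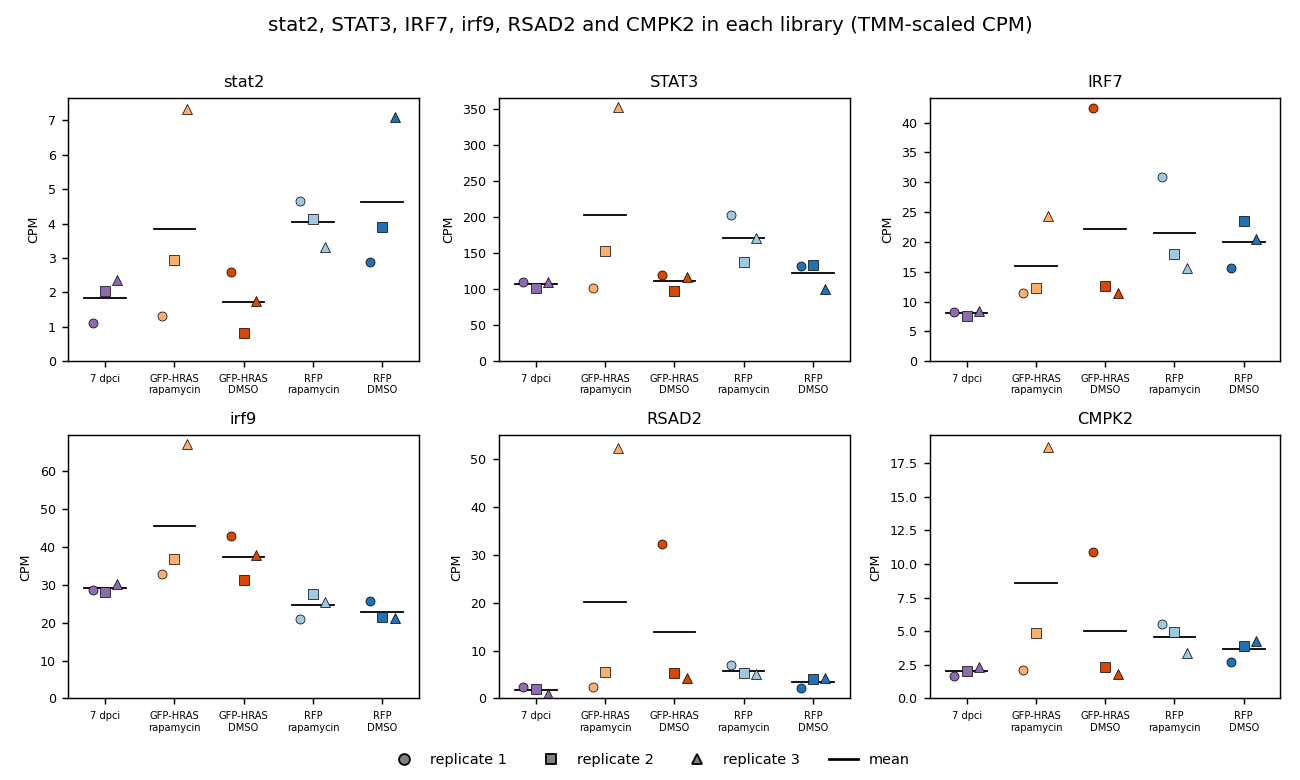
CPM of stat2, STAT3, IRF7 and irf9 and of the neighbouring genes RSAD2 and CMPK2 in each library, with symbols for the replicate number and a line at the mean of 3 libraries. GFP-HRAS rapamycin replicate 3 is the highest library for STAT3 (352 CPM), irf9 (67.1 CPM) and RSAD2 (52.4 CPM), and GFP-HRAS DMSO replicate 1 for IRF7 (42.4 CPM).

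The irf factors did not all move the same way, and several were not called. IRF8, IRF5, irf10 and irf9 rose in GFP-HRAS DMSO over RFP DMSO and irf2b fell, out of 10 tested. Over all genes, 24.9% were called higher and 22.6% lower in this comparison. Whether the irf family differs from these shares was not tested. IRF8 had 59.7, 41.7 and 40.1 CPM in GFP-HRAS DMSO and 8.02, 4.22 and 4.08 CPM in RFP DMSO. Every HRAS library was at least several times above every RFP library (3.12 ± 0.37, adjusted p = 0.000282). IRF5, a factor downstream of Toll-like receptors, had 12.5, 7.53 and 9.48 CPM in GFP-HRAS DMSO and 3.13, 0.794 and 1.1 CPM in RFP DMSO (2.56 ± 0.53, adjusted p = 0.003). The factor irf10, which birds and fish share, had 13.8, 7.61 and 8.48 CPM in GFP-HRAS DMSO and 3.13, 0.978 and 1.1 CPM in RFP DMSO (2.53 ± 0.43, adjusted p = 0.00108). Replicate 1 of RFP DMSO was the highest of its group for all 3 of these factors. Without it the log2 fold change was 3.36 for IRF5 and 3.24 for irf10.

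Of irf9, IRF7 and irf1b, irf9 was called. irf9, the DNA-binding subunit of the type I complex, had 42.8, 31.3 and 37.8 CPM in GFP-HRAS DMSO and 25.8, 21.6 and 21.1 CPM in RFP DMSO. The groups did not overlap and irf9 was called higher (0.71 ± 0.26, adjusted p = 0.04), but the call was lost without any 1 of the 6 libraries compared, with adjusted p from 0.05 to 0.122, without RFP rapamycin replicate 2 (0.0539) or 3 (0.0518), and with no filter on low counts (0.0615). IRF7, the amplifier of type I interferon, had 42.4, 12.6 and 11.5 CPM in GFP-HRAS DMSO and 15.7, 23.5 and 20.5 CPM in RFP DMSO. One HRAS library was above and the others were below RFP DMSO (0.16 ± 0.49, adjusted p = 0.803). irf1b, a paralogue of the interferon gamma target IRF1, had 140, 77.3 and 95.4 CPM in GFP-HRAS DMSO and 85.3, 25.7 and 18.5 CPM in RFP DMSO. The groups overlapped through RFP DMSO replicate 1, and irf1b was not called (1.28 ± 0.59, adjusted p = 0.0917). The other paralogue, irf1a, had too few counts to be tested.

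irf2b, a paralogue of IRF2, which competes with IRF1 for its sites, had 39.9, 29.1 and 25 CPM in GFP-HRAS DMSO and 63.7, 86.0 and 59.0 CPM in RFP DMSO. It was called lower with no overlap (-1.15 ± 0.29, adjusted p = 0.00807). Its paralogue irf2a had 11.1, 9.21 and 9.76 CPM in GFP-HRAS DMSO and 8.22, 7.7 and 6.56 CPM in RFP DMSO and was not called (0.42 ± 0.22, adjusted p = 0.128). Of 4 tested genes for co-regulators that bind IRF2, 3 were called lower, where 22.6% of all genes were. IRF2BPL was not called (-0.03 ± 0.29, adjusted p = 0.943). IRF2BP2 (ENSDARG00000004702) averaged 40.1 ± 7.36 CPM in GFP-HRAS DMSO and 87.5 ± 8.99 CPM in RFP DMSO (-1.12 ± 0.20, adjusted p = 0.00134). IRF2BP1 and the other IRF2BP2 gene (ENSDARG00000098635) fell by 0.78 and 0.50 on the log2 scale, with adjusted p of 0.00736 and 0.0175. With library totals as the scale, irf2b, IRF2BP1 and that second IRF2BP2 gene were no longer called (adjusted p = 0.057, 0.231 and 0.827). The second IRF2BP2 gene also lost its call without GFP-HRAS DMSO replicate 2 (0.0587) or 3 (0.0586) or RFP DMSO replicate 3 (0.0715).

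The mx genes encode dynamin-like GTPases that block viruses, and 4 of 6 tested rose in GFP-HRAS DMSO over RFP DMSO. That is 66.7%, against 24.9% of all genes, and 0 mx genes were called lower, against 22.6% of all genes. mxa had 34.4, 20.6 and 19.6 CPM in GFP-HRAS DMSO and 5.42, 6.35 and 5.95 CPM in RFP DMSO (2.08 ± 0.42, adjusted p = 0.00247). mxb had 20.2, 6.63 and 6.57 CPM in GFP-HRAS DMSO and 0.522, 0.611 and 0.441 CPM in RFP DMSO (4.40 ± 0.59, adjusted p = 0.000398). Replicate 1 of GFP-HRAS DMSO was the highest library for both, and without it mxb was still called at 3.64. mxc had 23.7, 14.9 and 11.9 CPM in GFP-HRAS DMSO and 1.37, 0.428 and 0.11 CPM in RFP DMSO (4.75 ± 0.79, adjusted p = 0.000996). mxd had 9.53, 9.45 and 5.26 CPM in GFP-HRAS DMSO and 0.718, 0.0611 and 0.331 CPM in RFP DMSO (4.45 ± 0.67, adjusted p = 0.000634). No library of one group reached the other for these 4 genes. Without RFP DMSO replicate 1 the log2 fold changes of mxc and mxd were 5.95 and 5.28.

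mxe and mxf did not follow them. mxe had 24.4, 7.98 and 15.6 CPM in GFP-HRAS DMSO and 8.61, 11.4 and 9.43 CPM in RFP DMSO, with overlapping groups (0.71 ± 0.50, adjusted p = 0.264). The RefSeq annotation places mxe next to mxc, which was called. mxf had 2.14, 1.35 and 2.27 CPM in GFP-HRAS DMSO and 10, 1.41 and 0.441 CPM in RFP DMSO, where replicate 1 stood far above the other 2 (-1.03 ± 0.91, adjusted p = 0.369). The remaining gene, mxg, was too low to be tested. Near-identical paralogues of such families may share reads, so their single values are uncertain.

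isg15, a ubiquitin-like protein attached to other proteins during the response, had 39.0, 20.8 and 22.5 CPM in GFP-HRAS DMSO and 3.2, 4.09 and 2.65 CPM in RFP DMSO. The groups were far apart (3.05 ± 0.43, adjusted p = 0.000464). RSAD2, or viperin, an enzyme that makes a chain-terminating nucleotide, behaved differently, at 32.3, 5.4 and 4.22 CPM in GFP-HRAS DMSO and 2.28, 3.97 and 4.25 CPM in RFP DMSO. Only replicate 1 of GFP-HRAS DMSO stood apart, and RSAD2 was not called (1.99 ± 1.03, adjusted p = 0.131). isg20, an exonuclease of RNA, averaged 4.59 ± 1.64 CPM in GFP-HRAS DMSO and 1.48 ± 0.657 CPM in RFP DMSO (1.64 ± 0.58, adjusted p = 0.0377). Without GFP-HRAS DMSO replicate 2 (0.115) or 3 (0.0795) isg20 was no longer called, nor without RFP DMSO replicate 1 (0.114) or 3 (0.108), or RFP rapamycin replicate 2 (0.0521). isg20l2, a relative known in human cells for ribosomal RNA processing, fell by 0.66 on the log2 scale (adjusted p = 0.033). Its call was lost with library totals (0.567), with no filter (0.0688), and without any 1 GFP-HRAS DMSO library or RFP DMSO replicate 2 or 3 (0.0528 to 0.113).

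The ifi44 family, interferon-induced genes related to human IFI44, had 4 genes called higher and 1 lower of 7 tested. Those shares are 57.1% and 14.3%, against 24.9% and 22.6% of all genes. Among the 4 is ifi44c2, which passed the filter only through the GFP-HRAS DMSO libraries. In the fit of the transgenic libraries ifi44a6 and ifi44a8 may have passed only so too, in which case they had to differ. ifi44a1 had 58.7, 22 and 30.5 CPM in GFP-HRAS DMSO and 7.24, 4.89 and 2.7 CPM in RFP DMSO (2.91 ± 0.48, adjusted p = 0.000963). ifi44a8 had 21.2, 6.83 and 15 CPM in GFP-HRAS DMSO and 0.261, 0.672 and 0 CPM in RFP DMSO (5.52 ± 0.80, adjusted p = 0.000528). ifi44a6 had 12.0, 6.06 and 11.5 CPM in GFP-HRAS DMSO and 0.0652, 0.55 and 0.165 CPM in RFP DMSO (5.21 ± 0.85, adjusted p = 0.000901). All HRAS libraries were above all RFP libraries for these 3 genes, and ifi44a8 and ifi44a6 had the highest fold changes of the 53 genes. With RFP DMSO at so few counts the size of these folds is loose: without RFP DMSO replicate 2 they were 6.79 for ifi44a8 and 6.29 for ifi44a6, and without RFP DMSO replicate 3 the value for ifi44a8 was 4.91. ifi44c2 also rose (3.22 ± 0.82, adjusted p = 0.00804), at 2.21 without GFP-HRAS DMSO replicate 1 and 4.19 without RFP DMSO replicate 2.

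ifi44f1 went the other way. It had 1.28, 0.777 and 0.995 CPM in GFP-HRAS DMSO and 1.3, 4.4 and 9.54 CPM in RFP DMSO, where the libraries differed widely (-2.31 ± 0.74, adjusted p = 0.0244). ifi44f1 was not called without GFP-HRAS DMSO replicate 2 (0.0798) or 3 (0.0659), without RFP DMSO replicate 3 (-1.49, adjusted p = 0.132) and with library totals (0.0557). ifi44f3 had 3.74, 5.73 and 10.6 CPM in GFP-HRAS DMSO and 3.26, 5.68 and 3.64 CPM in RFP DMSO, overlapped and was not called (adjusted p = 0.181). Of the 14 genes, 7 were too low to test. Among them ifi44a3 had 12 counts in GFP-HRAS DMSO and 0 in each of the other groups, and ifi44e had 0 counts in every library.

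The ifit genes encode proteins that bind foreign RNA, and 4 of 5 tested rose in GFP-HRAS DMSO. That is 80.0%, against 24.9% of all genes, but ifit9 and ifit10 passed the filter only through the GFP-HRAS DMSO libraries. ifit11 had 4.74, 3.48 and 4.3 CPM in GFP-HRAS DMSO and 1.89, 1.47 and 1.38 CPM in RFP DMSO (1.41 ± 0.28, adjusted p = 0.00247). ifit8 had 10.2, 2.05 and 3.15 CPM in GFP-HRAS DMSO and 0.326, 0.183 and 0.441 CPM in RFP DMSO (3.98 ± 0.65, adjusted p = 0.000903). ifit10 had 4.7, 1.35 and 1.19 CPM in GFP-HRAS DMSO and 0.0652, 0.122 and 0.0551 CPM in RFP DMSO (4.80 ± 1.08, adjusted p = 0.0045). Replicate 1 of GFP-HRAS DMSO was the highest library for all 3, and without it the fold changes of ifit8 and ifit10 were 3.0 and 3.87. ifit9 rose by 2.52 ± 0.69 (adjusted p = 0.0115), and ifit12, with 3.01, 2.7 and 3.38 CPM in GFP-HRAS DMSO and 1.96, 1.28 and 1.54 CPM in RFP DMSO, missed the threshold (adjusted p = 0.0889) although its groups did not overlap.

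Guanylate-binding proteins are large GTPases induced mainly by interferon gamma in mammals. gbp1 had 85.9, 63.5 and 97.9 CPM in GFP-HRAS DMSO and 11.1, 5.5 and 4.47 CPM in RFP DMSO (3.56 ± 0.32, adjusted p = 0.000101). gbp2, its neighbour in the RefSeq annotation, had 40.5, 31.1 and 40.2 CPM in GFP-HRAS DMSO and 4.05, 4.95 and 5.62 CPM in RFP DMSO (2.94 ± 0.23, adjusted p = 6.89e-05). Neither depended on replicate 1 of GFP-HRAS DMSO, which was not the highest library for gbp1. gbp3 had 5.47, 16.9 and 20.8 CPM in GFP-HRAS DMSO and 17.2, 20.2 and 23.8 CPM in RFP DMSO, and its groups overlapped (-0.50 ± 0.36, adjusted p = 0.278). gbp4 was too low to be tested.

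Genes of MHC class I peptide loading moved by unequal amounts. tap2a, a subunit of the transporter that brings peptides into the endoplasmic reticulum, had 55.1, 32.3 and 22.5 CPM in GFP-HRAS DMSO and 6.07, 2.75 and 2.09 CPM in RFP DMSO (3.34 ± 0.45, adjusted p = 0.000397). The related tap2t had 14.4, 14.0 and 14.2 CPM in GFP-HRAS DMSO and 6.85, 6.54 and 7.11 CPM in RFP DMSO (1.06 ± 0.16, adjusted p = 0.000642). Both were well separated, and the 3 libraries of each group hardly differed for tap2t. TAP1, the other subunit, had 21.7, 17.6 and 17.4 CPM in GFP-HRAS DMSO and 13.3, 9.41 and 12.1 CPM in RFP DMSO, without overlap but short of the threshold (0.71 ± 0.29, adjusted p = 0.064). b2m, the light chain of class I, had 825, 707 and 701 CPM in GFP-HRAS DMSO and 531, 477 and 419 CPM in RFP DMSO (0.65 ± 0.17, adjusted p = 0.0102). Without RFP DMSO replicate 3 it was not called (0.56, adjusted p = 0.0532). The related b2ml had 881, 677 and 744 CPM in GFP-HRAS DMSO and 1210, 1382 and 1274 CPM in RFP DMSO. It fell (-0.74 ± 0.16, adjusted p = 0.00328) but was not called with library totals (-0.29, adjusted p = 0.134).

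**Figure D3:**
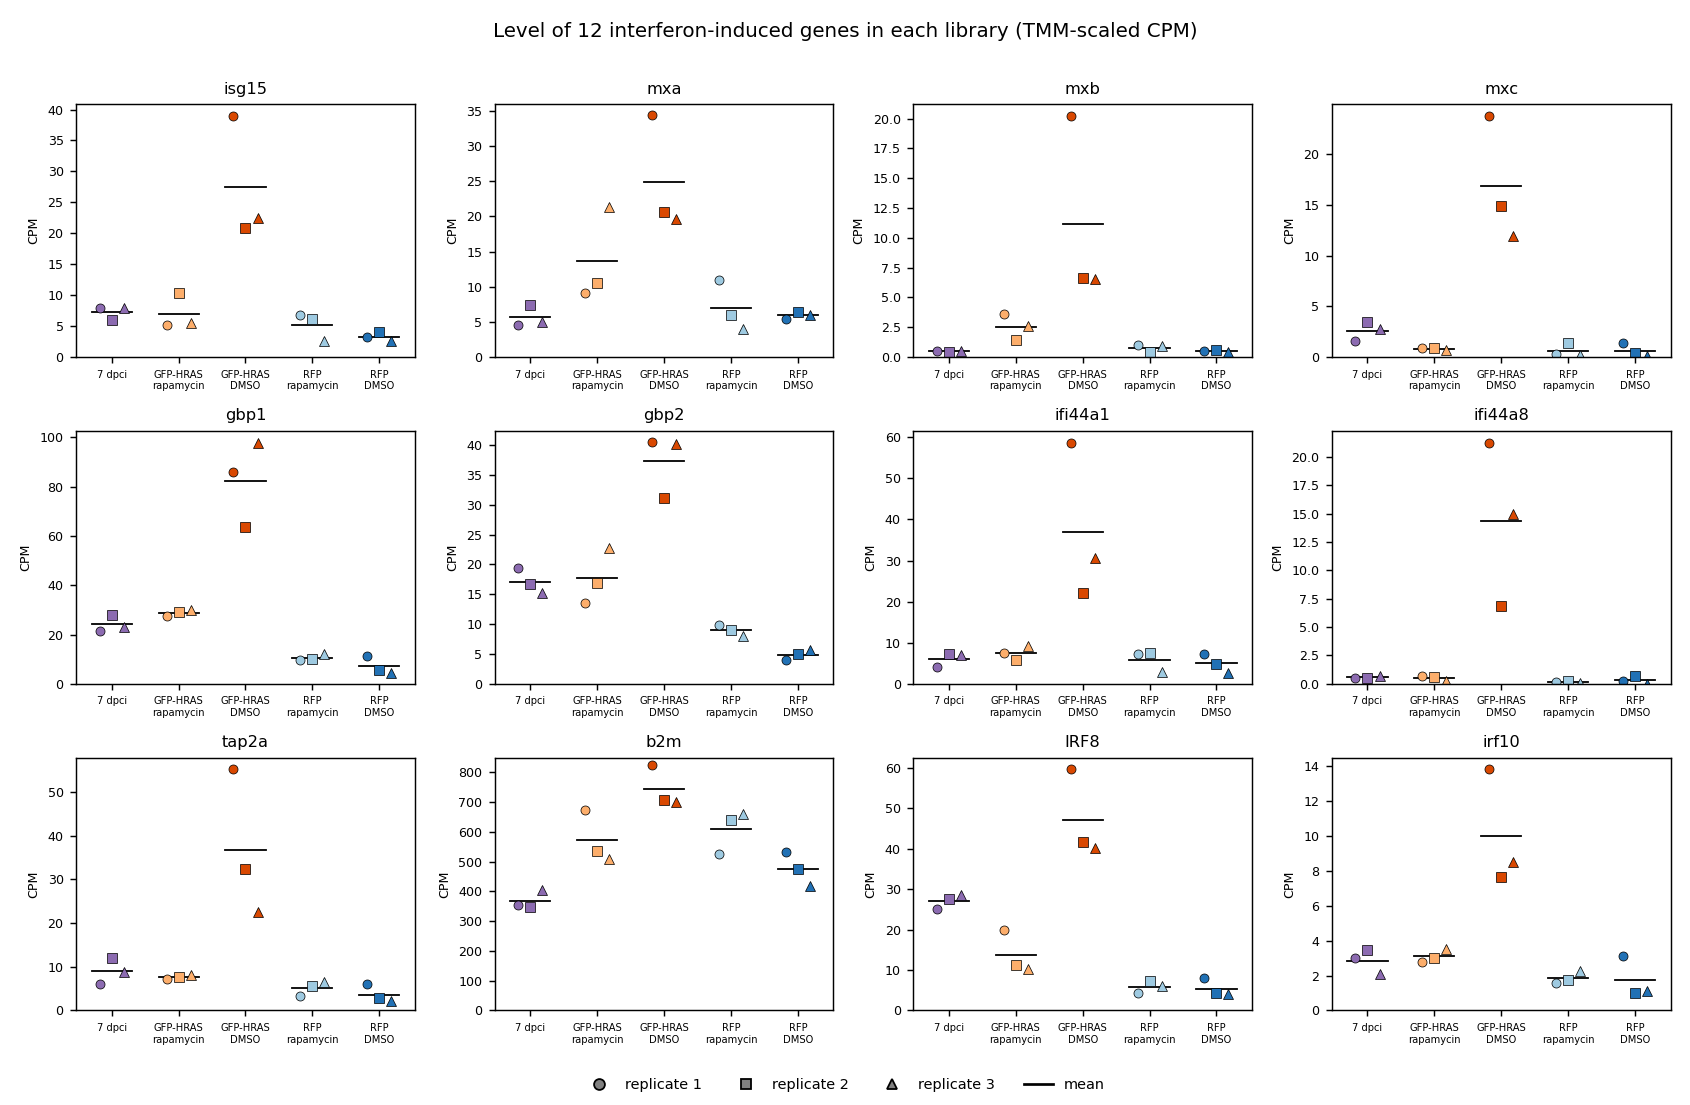
CPM of 12 interferon-induced genes and factors in each library, with symbols for the replicate number and a line at the mean of 3 libraries; each axis starts at 0. All 12 were picked from the 23 genes called higher in GFP-HRAS DMSO than in RFP DMSO. That the 3 GFP-HRAS DMSO libraries lie above the 3 RFP DMSO libraries in every panel thus adds no support. In GFP-HRAS rapamycin isg15 reaches 10.3 CPM at most, against at least 20.8 CPM in GFP-HRAS DMSO.

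Under rapamycin, genes of the mx, ifi44, gbp and peptide transporter groups fell in GFP-HRAS hearts, as did isg15, IRF8 and irf10. Of the 5 ifit genes tested, 0 were called, with log2 fold changes from -2.14 to 0.01. At an unadjusted p under 0.05, which 29.6% of all genes passed, 3 ifit genes were lower. Of the 53 genes, 14 (26.4%) were called lower in GFP-HRAS rapamycin than in GFP-HRAS DMSO, against 6.30% of all genes, and 2 (3.77%) higher, against 5.83%, with 12.1% of all genes called in either direction. The median log2 fold change was -0.66 over the 53 genes and 0.01 over all genes. Without the 3 genes that passed the filter only through GFP-HRAS DMSO in the check over 15 libraries, 13 of 50 were lower. Among the 13 are ifi44a6 and ifi44a8, which may also have passed only so in this fit. This comparison and that of GFP-HRAS DMSO with RFP DMSO share the GFP-HRAS DMSO libraries. With library totals, which moved the median of all genes to -0.44, 21 members were lower and 0 higher, and the calls over all genes were 254 higher and 3218 lower, from 936 and 1011. Macrophage and leukocyte markers again moved alongside, with a sum of 204 to 574 CPM in GFP-HRAS rapamycin and 3737 to 5359 CPM in GFP-HRAS DMSO, and T cell markers with 6.14 to 11.4 CPM in GFP-HRAS rapamycin and 29.0 to 85.2 CPM in GFP-HRAS DMSO. Endothelial markers summed to 747 to 932 CPM in GFP-HRAS rapamycin and 439 to 461 CPM in GFP-HRAS DMSO, and 6 of 11 cardiomyocyte markers were higher. The part of these cell types was not tested.

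The largest falls among the 14 genes were those of ifi44a8, ifi44a6 and mxc, while 3 of 7 ifi44 and 3 of 6 mx genes were not called. ifi44a8 had 0.648, 0.6 and 0.244 CPM in GFP-HRAS rapamycin, all below the lowest GFP-HRAS DMSO library at 6.83 CPM (-4.82 ± 0.75, adjusted p = 0.00633). ifi44a6 had 0.399, 0.667 and 0.367 CPM in GFP-HRAS rapamycin, against at least 6.06 CPM in GFP-HRAS DMSO (-4.37 ± 0.80, adjusted p = 0.00994). mxc had 0.847, 0.934 and 0.672 CPM in GFP-HRAS rapamycin, against at least 11.9 CPM in GFP-HRAS DMSO (-4.36 ± 0.77, adjusted p = 0.00917). For all 3 genes the rapamycin libraries lay close together and far below the DMSO libraries. If ifi44a8 and ifi44a6 passed the filter only through GFP-HRAS DMSO, their falls were fixed by it. mxd fell by 3.66 (adjusted p = 0.0083), ifi44c2 by 2.87 (0.0389) and ifi44a1 by 2.32 (0.0135) on the log2 scale. mxb, at 3.59, 1.4 and 2.57 CPM in GFP-HRAS rapamycin, fell by 2.13 (adjusted p = 0.0236). mxb was not called without GFP-HRAS DMSO replicate 1 (-1.38, adjusted p = 0.0661), GFP-HRAS rapamycin replicate 2 (0.0761) or 3 (0.0659). ifi44a1 lost its call without GFP-HRAS rapamycin replicate 2 (0.0545). ifi44c2 lost its call under 5 of the 6 omissions of a compared library, with adjusted p from 0.0681 to 0.121, without RFP DMSO replicate 3 (0.0567) or RFP rapamycin replicate 2 (0.0578), and stood at -1.86 without GFP-HRAS DMSO replicate 1.

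isg15 had 5.23, 10.3 and 5.44 CPM in GFP-HRAS rapamycin, all below GFP-HRAS DMSO (-1.98 ± 0.40, adjusted p = 0.0144). tap2a had 7.13, 7.74 and 8.07 CPM (-2.26 ± 0.42, adjusted p = 0.0107), and tap2t 6.53, 7.2 and 8.0 CPM (-0.97 ± 0.16, adjusted p = 0.00721), both in GFP-HRAS rapamycin. The rapamycin libraries were nearly level for both transporter genes. gbp1 had 27.4, 29.0 and 29.8 CPM in GFP-HRAS rapamycin (-1.52 ± 0.29, adjusted p = 0.0119), and gbp2 had 13.6, 16.9 and 22.7 CPM (-1.08 ± 0.22, adjusted p = 0.0136). Both gbp genes lay between GFP-HRAS DMSO and RFP rapamycin, with no overlap on either side. gbp2 lost its call against GFP-HRAS DMSO without GFP-HRAS rapamycin replicate 2 (0.053). Of the factors, IRF8 had 19.8, 11.2 and 10.3 CPM in GFP-HRAS rapamycin (-1.78 ± 0.34, adjusted p = 0.0119), and irf10 had 2.79, 3.0 and 3.54 CPM (-1.68 ± 0.41, adjusted p = 0.0257). irf10 lost its call without any 1 of the 6 libraries compared (0.0555 to 0.0772). IRF5, at 4.44, 3.0 and 2.02 CPM in GFP-HRAS rapamycin, was below every GFP-HRAS DMSO library but not called (-1.64 ± 0.51, adjusted p = 0.057).

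No stat gene of 8 was called in either direction between GFP-HRAS rapamycin and GFP-HRAS DMSO, where 12.1% of all genes were called. Of the 8, 3 were higher and 0 lower at an unadjusted p under 0.05, which 29.6% of all genes passed. DESeq2 called 0 in both directions, against 9.59% of all genes higher and 9.9% lower. STAT3 had 102, 152 and 352 CPM (0.85 ± 0.37, adjusted p = 0.149), and stat2 had 1.3, 2.93 and 7.33 CPM in GFP-HRAS rapamycin (1.15 ± 0.60, adjusted p = 0.222). Both genes were highest in replicate 3 and lowest in replicate 1 of that group. The calls in the upward direction were b2ml (0.56, adjusted p = 0.0399) and IRF2BP2 ENSDARG00000004702 (0.74, adjusted p = 0.0354). Neither was called with library totals (0.617 and 0.247). Each was also lost without GFP-HRAS DMSO replicate 2 (0.159 and 0.134) or 3 (0.119 and 0.126), without GFP-HRAS rapamycin replicate 2 (0.0949 and 0.0718) or 3 (0.11 and 0.109), and without RFP rapamycin replicate 2 (0.0602 and 0.0528). b2ml was further lost without RFP DMSO replicate 2 (0.0533) or 3 (0.0626).

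In RFP hearts rapamycin gave no call. edgeR called 0 of the 53 genes in either direction between RFP rapamycin and RFP DMSO, and 0.0% of all genes. At an unadjusted p under 0.05 there was 1 gene, gbp2, against 4.91% of all genes, and DESeq2 called 0 of the 53. gbp2 had 9.91, 8.99 and 7.98 CPM in RFP rapamycin and 4.05, 4.95 and 5.62 CPM in RFP DMSO, without overlap (0.88 ± 0.23, unadjusted p = 0.00235, adjusted p = 0.864). isg15 was at 6.84, 6.2 and 2.56 CPM in RFP rapamycin and 3.2, 4.09 and 2.65 CPM in RFP DMSO (0.66 ± 0.41, adjusted p = 1.0). mxc was at 0.256, 1.4 and 0.151 CPM in RFP rapamycin and 1.37, 0.428 and 0.11 CPM in RFP DMSO (0.01 ± 0.78, adjusted p = 1.0). The groups overlapped for both.

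Whether rapamycin acted differently in the 2 lines was tested as an interaction. edgeR called 0 of the 53 genes, against 0.0499% of all genes (0.00623% higher and 0.0436% lower), but 18 were lower in GFP-HRAS and 2 higher at an unadjusted p under 0.05, which 14.4% of all genes passed. DESeq2 called 12 lower and 0 higher, and 2.14% of all genes lower and 1.1% higher. With library totals 5 were called lower, against 121 of all 16044 genes tested. The values closest to the threshold were -1.96 ± 0.31 for gbp2 (adjusted p = 0.0527), -2.10 ± 0.42 for gbp1 (0.0873), -2.78 ± 0.60 for tap2a (0.102) and -2.63 ± 0.57 for isg15 (0.105). The largest estimates were -4.37 ± 1.11 for mxc (adjusted p = 0.139), -3.98 ± 1.31 for ifi44a8 (0.227) and -3.72 ± 1.36 for ifi44a6 (0.269). For gbp2 the 2 rapamycin effects had opposite signs, -1.08 in GFP-HRAS and 0.88 in RFP.

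Under rapamycin the GFP-HRAS and RFP hearts differed in 7 of these genes. Of the 53, 5 (9.43%) were called higher in GFP-HRAS rapamycin than in RFP rapamycin, against 10.4% of all genes, and 2 (3.77%) lower, against 7.71%, so the share higher was close to that of all genes, of which 18.1% were called in either direction. Macrophage and leukocyte markers summed to 204 to 574 CPM in GFP-HRAS rapamycin and 180 to 213 CPM in RFP rapamycin. The genes called higher were gbp1 (1.46 ± 0.30, adjusted p = 0.0103), gbp2 (0.98 ± 0.22, 0.015), IRF8 (1.22 ± 0.35, 0.0341), irf9 (0.89 ± 0.26, 0.0374) and isg20 (2.11 ± 0.63, 0.0401). Those called lower were stat5a (-2.13 ± 0.58, 0.0298) and IRF2BP2 ENSDARG00000004702 (-0.74 ± 0.20, 0.0274). gbp1 had 27.4, 29.0 and 29.8 CPM in GFP-HRAS rapamycin and 9.52, 9.94 and 11.9 CPM in RFP rapamycin, and it was the gene of the 7 that kept its call under every alternative run. irf9 had 32.8, 36.8 and 67.1 CPM in GFP-HRAS rapamycin and 20.9, 27.6 and 25.4 CPM in RFP rapamycin, and without GFP-HRAS rapamycin replicate 3 it gave 0.50 (adjusted p = 0.0737). irf9 was also lost without any 1 RFP rapamycin library, GFP-HRAS rapamycin replicate 2, or replicate 2 or 3 of GFP-HRAS DMSO or RFP DMSO (0.0504 to 0.109). IRF8 was not called without GFP-HRAS rapamycin replicate 1 (0.148) or 2 (0.0641) or without any 1 RFP rapamycin library (0.0665 to 0.102), and gbp2 not without RFP rapamycin replicate 2 (0.0593). isg20 gave 2.87 without RFP rapamycin replicate 1. It was lost without GFP-HRAS rapamycin replicate 1 (0.1) or 2 (0.12), RFP rapamycin replicate 2 (0.117) or 3 (0.0616), GFP-HRAS DMSO replicate 2 (0.0517) or 3 (0.0528), or RFP DMSO replicate 3 (0.0577). stat5a was lost without GFP-HRAS rapamycin replicate 1 (0.117) or 2 (0.111) and RFP rapamycin replicate 1 (0.0999) or 2 (0.0778), and gave -2.81 without GFP-HRAS rapamycin replicate 3. IRF2BP2 ENSDARG00000004702 was lost without GFP-HRAS rapamycin replicate 1 (0.116) or 2 (0.0983) and RFP rapamycin replicate 2 (0.0755) or 3 (0.0699).

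**Figure D4:**
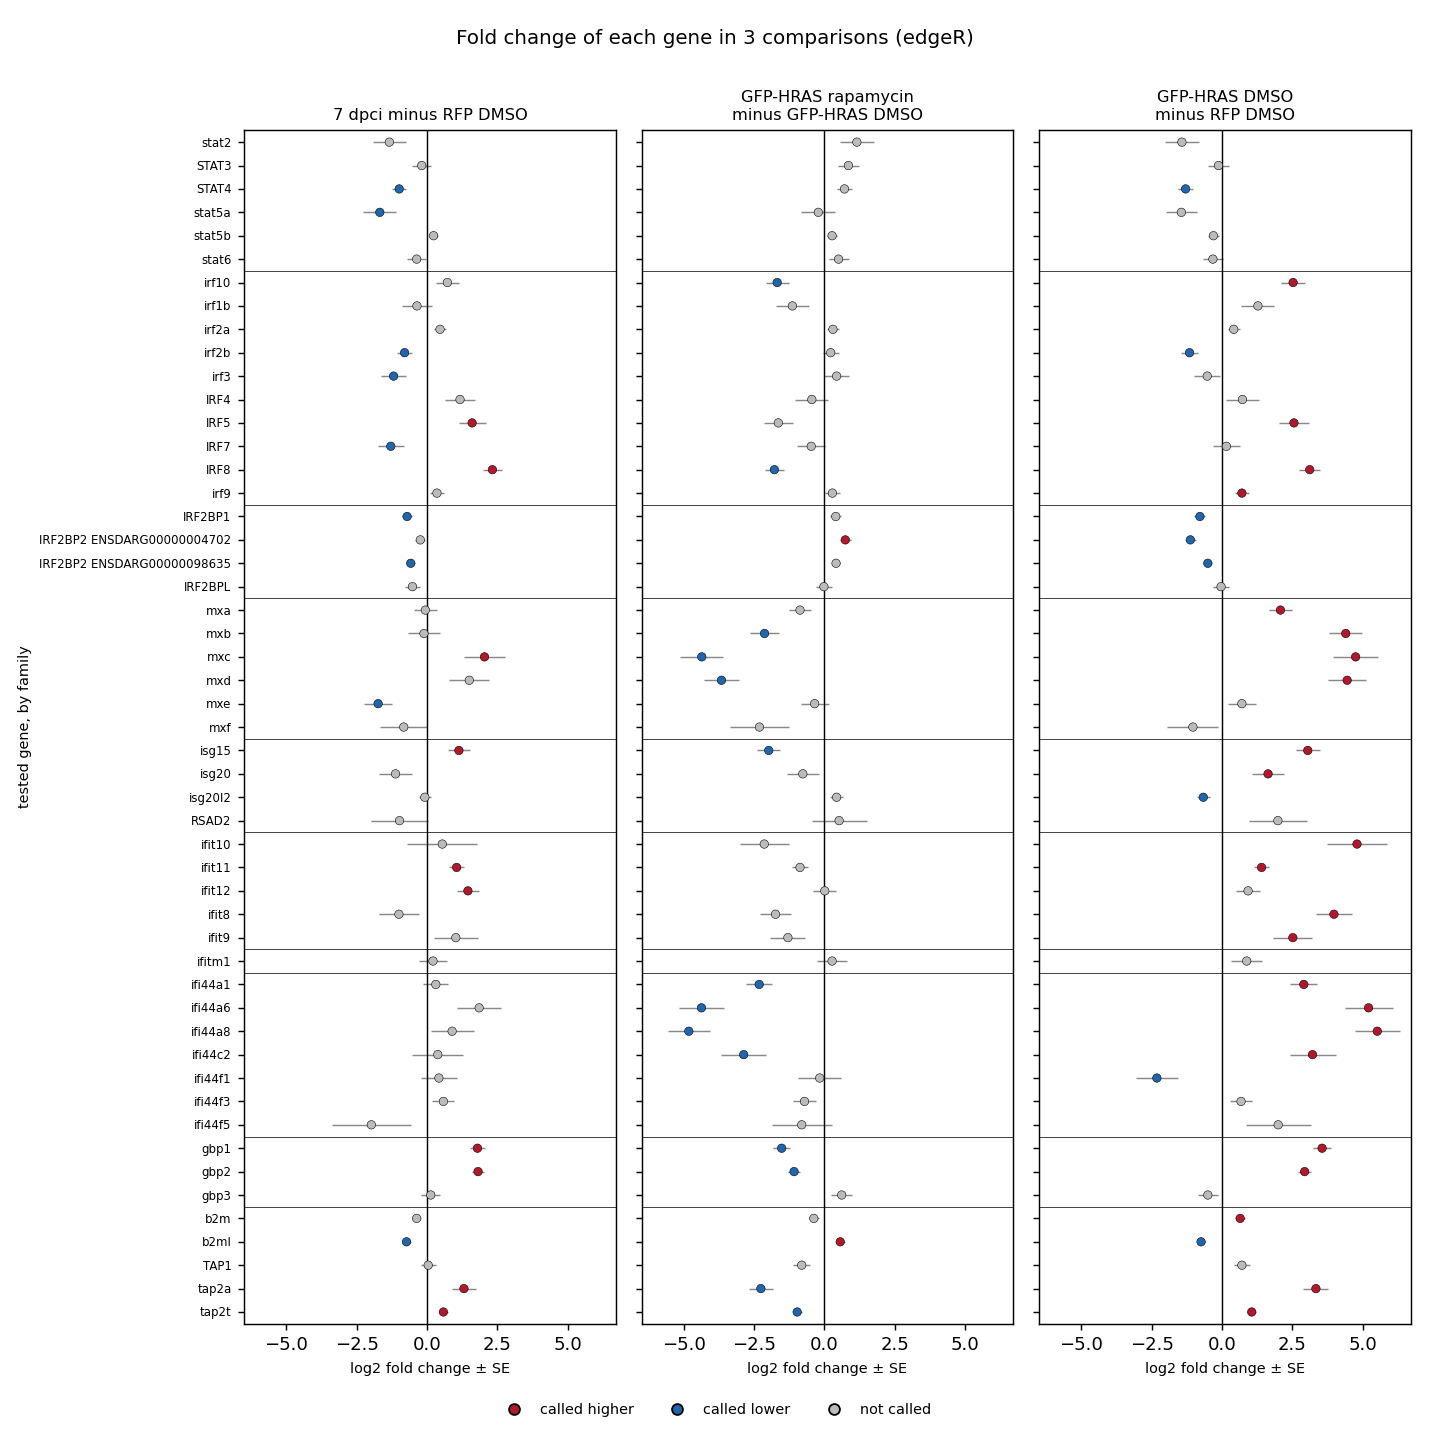
The log2 fold change with its SE for 51 of the 53 tested genes, by family, in 7 dpci over RFP DMSO, in GFP-HRAS rapamycin over GFP-HRAS DMSO and in GFP-HRAS DMSO over RFP DMSO; colours mark genes called higher, called lower or not called. The panels hold 10, 2 and 23 genes called higher and 9, 14 and 8 called lower, and the comparisons share libraries with each other.

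In 7 dpci hearts IRF8, gbp1 and gbp2 were higher than in RFP DMSO hearts, while IRF7 and mxe were lower. The 7 dpci hearts differ from every other group in count table, transgene, 4-OHT, vehicle or rapamycin, and injury, and these cannot be told apart. Against RFP DMSO, 10 of the 53 genes (18.9%) were called higher and 10 (18.9%) lower, close to the 18.8% and 17.7% of all 16421 genes tested, with 36.4% of all genes called in either direction. The median was 0.04 over the 53 genes and 0.02 over all genes. Higher were IRF8, mxc, gbp2, gbp1, IRF5, ifit12, tap2a, isg15, ifit11 and tap2t, and among those lower were mxe, stat5a, IRF7, irf3, STAT4, irf2b and b2ml. With library totals 11 were higher and 6 lower, and the calls over all genes became 3517 higher and 2127 lower, from 3079 and 2905. Macrophage and leukocyte markers summed to 1369 to 1456 CPM in 7 dpci and 138 to 400 CPM in RFP DMSO. Fibroblast markers summed to 3136 to 3279 CPM in 7 dpci and 195 to 230.0 CPM in RFP DMSO, erythrocyte markers to 296 to 601 CPM in 7 dpci and 54.9 to 106 CPM in RFP DMSO, and endothelial markers to 735 to 848 CPM in 7 dpci and 1362 to 1602 CPM in RFP DMSO. The part of these cell types was not tested.

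IRF8 had 25, 27.6 and 28.6 CPM in 7 dpci, above every RFP DMSO library (2.32 ± 0.33, adjusted p = 0.00037). gbp2 had 19.4, 16.7 and 15.2 CPM in 7 dpci (1.81 ± 0.21, adjusted p = 0.000176) and gbp1 21.4, 28.1 and 23.2 CPM (1.79 ± 0.28, adjusted p = 0.000679). These 3 genes were separated from RFP DMSO and kept their calls under every alternative. mxc had 1.58, 3.45 and 2.73 CPM in 7 dpci (2.04 ± 0.72, adjusted p = 0.0402). Its call was lost without RFP DMSO replicate 2 (0.131) or 3 (0.13), 7 dpci replicate 2 (0.118) or 3 (0.0825), GFP-HRAS DMSO replicate 2 (0.0516) or GFP-HRAS rapamycin replicate 2 (0.0504), while without RFP DMSO replicate 1 it was 3.26. isg15 had 7.9, 5.98 and 7.93 CPM in 7 dpci (1.13 ± 0.38, adjusted p = 0.0337), and its call was lost without any 1 RFP DMSO library (0.051 to 0.116) or 7 dpci replicate 1 (0.0858) or 3 (0.084). IRF5 (1.6) was lost without RFP DMSO replicate 2 (0.0853) or 3 (0.0842) or 7 dpci replicate 1 (0.0641), and stood at 2.40 without RFP DMSO replicate 1. tap2a (1.31) was lost without RFP DMSO replicate 2 (0.103) or 3 (0.106) or 7 dpci replicate 2 (0.108) or 3 (0.0547), ifit12 (1.45) without RFP DMSO replicate 2 (0.0556) and ifit11 (1.05) without 7 dpci replicate 1 (0.0502). Of the genes that were lower, stat5a was lost without replicate 2 or 3 of RFP DMSO or 7 dpci (0.099 to 0.137), GFP-HRAS DMSO replicate 2 (0.0517) or RFP rapamycin replicate 2 (0.0514), irf2b without RFP DMSO replicate 2 (0.137) or any 1 7 dpci library (0.0587 to 0.0949), and IRF2BP2 ENSDARG00000098635 without RFP DMSO replicate 3 (0.065) or 7 dpci replicate 1 (0.0756) or 2 (0.051). With library totals stat5a (0.0556) and irf2b (0.0542) were also lost, and stat5a with no filter (0.0535).

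mxe had 2.11, 3.34 and 3.33 CPM in 7 dpci, below all 12 transgenic libraries (-1.74 ± 0.50 against RFP DMSO, adjusted p = 0.0163). It lost this call without RFP DMSO replicate 2 (0.0526) or 7 dpci replicate 1 (0.0664). IRF7 had 8.24, 7.59 and 8.47 CPM in 7 dpci (-1.29 ± 0.46, adjusted p = 0.0433) and irf3, which with IRF7 switches on type I interferon genes, averaged 2.77 ± 0.17 CPM in 7 dpci and 6.3 ± 1.78 CPM in RFP DMSO (-1.19 ± 0.43, adjusted p = 0.0455). irf3 was lost without any 1 library of these 2 groups other than RFP DMSO replicate 1 (0.0961 to 0.129), without GFP-HRAS DMSO replicate 3 (0.0568), GFP-HRAS rapamycin replicate 2 (0.057) or RFP rapamycin replicate 2 (0.0575), with no filter (0.0537) and with library totals (0.0671). IRF7 was lost without RFP DMSO replicate 2 (0.124) or 3 (0.0926), without any 1 7 dpci library (0.0927 to 0.115), without GFP-HRAS rapamycin replicate 2 (0.0501) or RFP rapamycin replicate 2 (0.0532), and with library totals (0.0502).

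Against GFP-HRAS DMSO, 24 of the 53 genes (45.3%) were lower in 7 dpci, compared with 15.5% of all genes, and 3 (5.66%) higher, compared with 13.3%, and 28.8% of all genes were called in either direction. The median was -0.67 over the 53 genes and -0.05 over all genes. Without the 3 genes that passed the filter only through GFP-HRAS DMSO, 22 of 50 were lower. With library totals, which moved the median of all genes to -0.39, 31 were lower and 2 higher, and over all genes 4617 were lower and 1290 higher, from 2541 and 2192. Macrophage and leukocyte markers summed to 1369 to 1456 CPM in 7 dpci and 3737 to 5359 CPM in GFP-HRAS DMSO, and their part was not tested. The furthest were ifit8 (-4.98 ± 0.65, adjusted p = 0.00042), ifi44a8 (-4.63 ± 0.68, 0.000749) and mxb (-4.50 ± 0.54, 0.00028). ifit8 had 0.144, 0.162 and 0.164 CPM in 7 dpci and at least 2.05 CPM in GFP-HRAS DMSO, and mxb had 0.527, 0.431 and 0.492 CPM in 7 dpci and at least 6.57 CPM in GFP-HRAS DMSO. Without GFP-HRAS DMSO replicate 1, ifit8 was -3.95 and mxb -3.70, both still called, while RSAD2 (-2.97, adjusted p = 0.0438) became -1.38 (0.281), IRF7 (-1.45, 0.0325) became -0.53 (0.267) and ifi44c2 (-2.84, 0.0198) became -1.78 (0.104). RSAD2 and IRF7 were also lost without any 1 7 dpci library (0.0938 to 0.137 and 0.0832 to 0.0931), RSAD2 without any 1 RFP library (0.052 to 0.0559), and ifi44c2 without 7 dpci replicate 1 (0.0811) or 3 (0.0796). IRF8 was not called between these groups (-0.80 ± 0.30, adjusted p = 0.0639).

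The genes higher in 7 dpci than in GFP-HRAS DMSO were ifi44f1, IRF2BP2 ENSDARG00000004702 and stat5b. ifi44f1 had 6.9, 8.13 and 5.47 CPM in 7 dpci and at most 1.28 CPM in GFP-HRAS DMSO (2.74 ± 0.69, adjusted p = 0.011). It was also above GFP-HRAS rapamycin, which held at most 1.1 CPM (2.91 ± 0.71, adjusted p = 0.0143), and that call was lost without GFP-HRAS rapamycin replicate 2 (0.0641). In 7 dpci against GFP-HRAS DMSO, ifi44f1 was thus higher while ifi44a1, ifi44a6 and ifi44a8 were lower. IRF2BP2 ENSDARG00000004702 averaged 74.3 ± 5.78 CPM in 7 dpci (0.89 ± 0.18, adjusted p = 0.00389). stat5b had 16.8, 16.4 and 14.4 CPM in 7 dpci (0.54 ± 0.16, adjusted p = 0.028), and was not called with library totals (0.413) or if GFP-HRAS DMSO lacked replicate 1 (0.0599) or 2 (0.0613) or 7 dpci lacked replicate 1 (0.0904) or 2 (0.0795).

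Against GFP-HRAS rapamycin, 9 of the 53 genes (17.0%) were lower in 7 dpci and 3 (5.66%) higher, against 10.2% and 8.36% of all genes, with 18.5% called in either direction. The calls over all genes were 1373 higher and 1673 lower, and with library totals 1636 higher and 965 lower. Macrophage and leukocyte markers summed to 1369 to 1456 CPM in 7 dpci and 204 to 574 CPM in GFP-HRAS rapamycin. Among the genes lower were RSAD2 (-3.49 ± 1.04, adjusted p = 0.0337), ifit8 (-3.24 ± 0.65, 0.00572), mxb (-2.37 ± 0.53, 0.00932) and mxe (-2.10 ± 0.51, 0.0136). RSAD2 had 2.4, 1.99 and 0.929 CPM in 7 dpci and 2.39, 5.6 and 52.4 CPM in GFP-HRAS rapamycin, and without replicate 3 of that group it was -1.15 (adjusted p = 0.305), and it was also lost without any 1 7 dpci library (0.0872 to 0.112). mxe lost its call without 7 dpci replicate 1 (0.0633). ifit8 and mxb kept their calls under every alternative. IRF8 was higher in 7 dpci (0.98 ± 0.31, adjusted p = 0.0428), as was tap2t (0.50 ± 0.15, 0.032), and both calls were lost without several single libraries, with adjusted p from 0.0509 to 0.151 for IRF8 and from 0.0814 to 0.114 for tap2t.

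**Figure D5:**
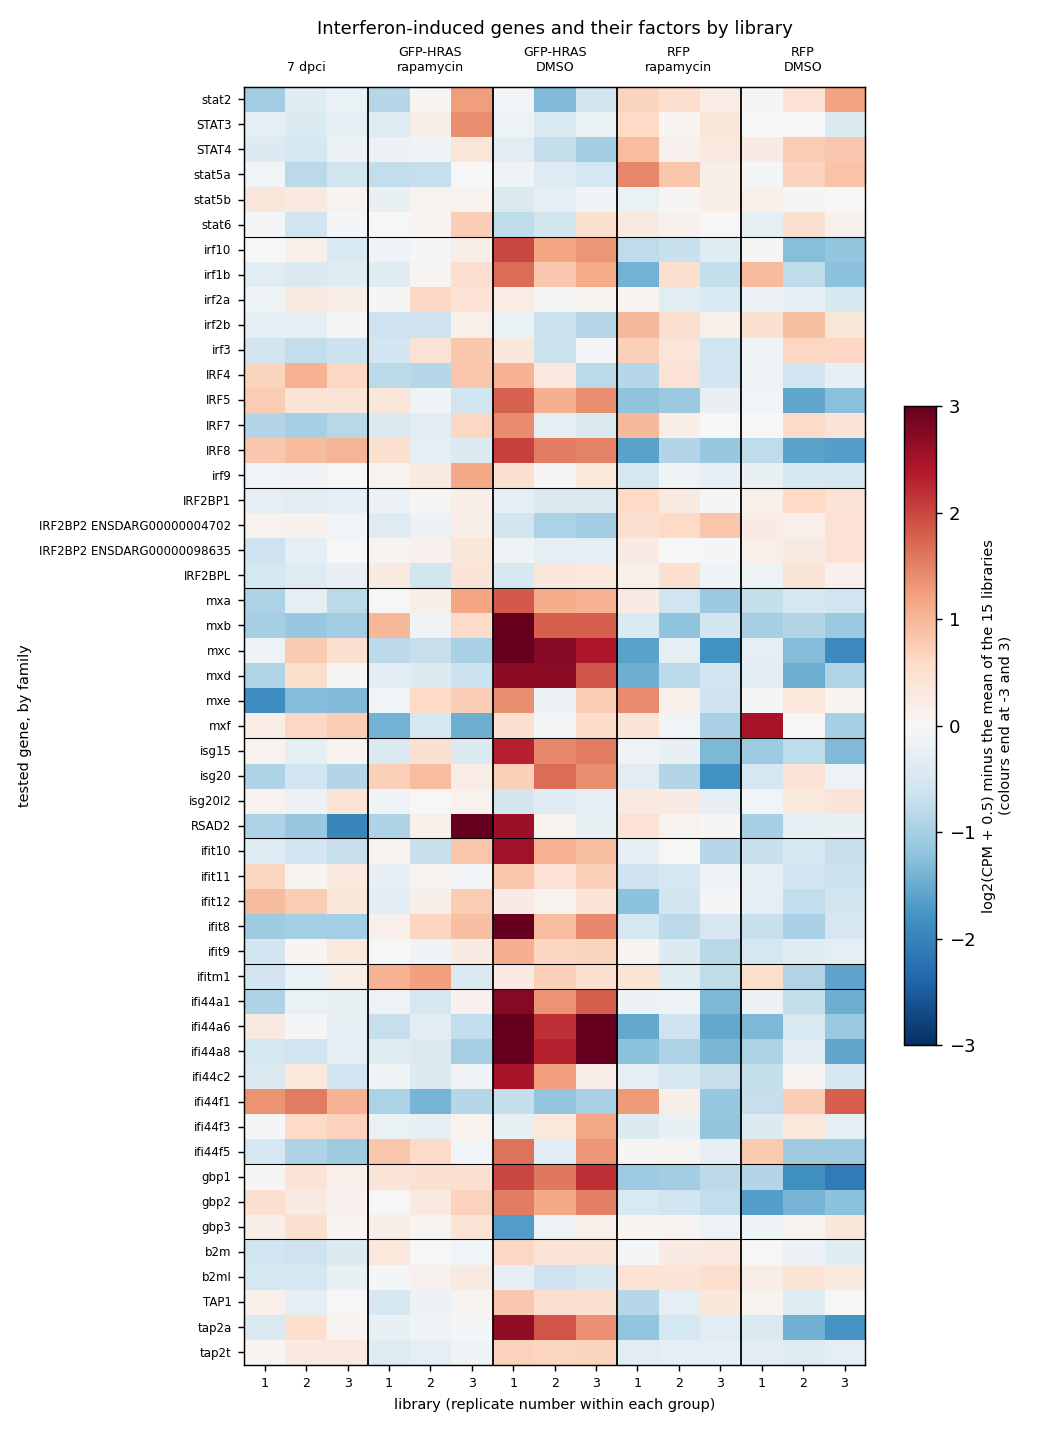
The level of 51 of the 53 tested genes in each of the 15 libraries, as log2(CPM + 0.5) minus the mean of the gene over the libraries, ordered by family down the page and by group across it. GFP-HRAS DMSO replicate 1 is the highest library for 25 of the 51 genes drawn and GFP-HRAS rapamycin replicate 3 for 6. The shares over all genes were not counted.

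Single libraries differed in which interferon genes they held. GFP-HRAS DMSO replicate 1 was the highest of the 15 libraries for 26 of the 53 genes, among them isg15, mxa, mxb, mxc, ifit8 and ifi44a1. GFP-HRAS rapamycin replicate 3 was the highest for 7, among them RSAD2 and irf9. The share of all genes that were highest in these libraries was not counted, so the counts may not be particular to interferon genes. In GFP-HRAS rapamycin replicate 3 RSAD2 reached 52.4 CPM and mxa 21.4 CPM, and irf9 reached 67.1 CPM and STAT3 352 CPM. Yet isg15 was at 5.44 CPM there, mxc at 0.672 CPM and ifi44a8 at 0.244 CPM. For isg15, mxc and ifi44a8 it thus lay below every GFP-HRAS DMSO library, and for RSAD2, irf9 and STAT3 above every one. The RNA sensor DHX58, named after its values were seen, had 8.57, 16.5 and 44.8 CPM in GFP-HRAS rapamycin, highest in replicate 3. In GFP-HRAS DMSO it had 56.7, 25.8 and 22.4 CPM. For DHX58, replicate 3 of GFP-HRAS rapamycin thus lay below replicate 1 of GFP-HRAS DMSO. CMPK2, a nucleotide kinase that is RSAD2's neighbour in the RefSeq annotation, was named after its values were seen. It had 2.14, 4.87 and 18.7 CPM in GFP-HRAS rapamycin, 10.9, 2.33 and 1.79 CPM in GFP-HRAS DMSO, and 2.74, 3.91 and 4.3 CPM in RFP DMSO. Its highest library was the same as that of RSAD2 in both GFP-HRAS groups.

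Genes around the pathway were taken from lists chosen with earlier results of these data known. The check for genes that passed the filter only through 1 group was not run for these lists. Of the interferon ligands and receptors, 1 of 8 tested (12.5%) rose and 2 (25%) fell in GFP-HRAS DMSO against RFP DMSO, where 24.9% of all genes were higher and 22.6% lower. The riser was TYK2, a kinase of the type I receptor (1.05 ± 0.22, adjusted p = 0.00321), and the genes that fell were ifngr1l, an interferon gamma receptor chain (-1.31 ± 0.29, 0.00393), and il10rb, a chain of the interleukin-10 receptor family (-0.76 ± 0.21, 0.0116). The interferon gene ifng1, named after its values were seen, had 33, 10 and 25 counts in GFP-HRAS DMSO and 1, 0 and 0 counts in RFP DMSO. The ratio of CPM was 47.4, with a 95% counting interval of 8.23 to 1899.8. That interval pools the libraries of a group and leaves out the spread between them. ifng1 did not pass the filter on low counts in this comparison and was not tested. It had 1, 0 and 2 counts in GFP-HRAS rapamycin and 0, 2 and 1 in 7 dpci. The type I interferon ifnphi1 had 28, 24 and 26 counts in GFP-HRAS DMSO and 19, 34 and 19 in RFP DMSO. Scaled, these were 1.28, 0.982 and 1.04 CPM in GFP-HRAS DMSO and 1.24, 2.08 and 1.05 CPM in RFP DMSO. The 2 groups overlapped, and ifnphi1 was not called.

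Sensors of foreign nucleic acid and their adaptors had 8 of 15 tested genes (53.3%) called higher and 0 called lower in GFP-HRAS DMSO, against 24.9% and 22.6% of all genes, with a median of 1.04. The endosomal receptor tlr8b averaged 17.7 ± 3.23 CPM in GFP-HRAS DMSO and 0.681 ± 0.272 CPM in RFP DMSO (4.70 ± 0.59, adjusted p = 0.000349). STING1, the adaptor of cytosolic DNA sensing, averaged 6.76 ± 1.28 CPM in GFP-HRAS DMSO and 0.771 ± 0.18 CPM in RFP DMSO (3.13 ± 0.37, adjusted p = 0.000286). Both were also higher in 7 dpci than in RFP DMSO, by 3.46 and 1.37 (adjusted p = 0.000529 and 0.00701). The RNA sensors DHX58 and IFIH1 rose by 1.95 and 1.04 in GFP-HRAS DMSO (adjusted p = 0.0167 and 0.0027). In GFP-HRAS hearts 4 of the 15 (26.7%), tlr8b, STING1, tlr9 and tlr22, fell with rapamycin, against 6.30% of all genes, with log2 fold changes of -3.01, -1.90, -1.84 and -1.8.

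Of 11 tested genes of the immunoproteasome and class I loading, 9 (81.8%) rose and 0 fell in GFP-HRAS DMSO against RFP DMSO, with a median of 2.11, where 24.9% of all genes were higher and 22.6% lower. PSMB9, an inducible catalytic subunit, averaged 25.5 ± 10.2 CPM in GFP-HRAS DMSO and 2.13 ± 1.22 CPM in RFP DMSO (3.59 ± 0.46, adjusted p = 0.000355). PSMB8 averaged 71.2 ± 30.4 CPM in GFP-HRAS DMSO and 6.41 ± 4.08 CPM in RFP DMSO (3.48 ± 0.44, adjusted p = 0.00035). With rapamycin 6 of the 11 (54.5%) fell in GFP-HRAS hearts, against 6.30% of all genes, PSMB9 with -2.42 (adjusted p = 0.00918), and in RFP hearts 0 were called. In 7 dpci against RFP DMSO 4 (36.4%) were higher, against 18.8% of all genes, PSMB9 by 1.57 (adjusted p = 0.0118), and ERAP1 (ENSDARG00000021859), which trims peptides, was lower (-0.67, adjusted p = 0.026).

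Other induced genes and feedback regulators had 6 of 19 tested genes (31.6%) called higher and 0 lower in GFP-HRAS DMSO. The share higher was near the 24.9% of all genes, and 22.6% of all genes were called lower. ciita, the regulator of MHC class II genes and a target of interferon gamma, averaged 27.7 ± 8.94 CPM in GFP-HRAS DMSO and 1.58 ± 0.551 CPM in RFP DMSO (4.14 ± 0.38, adjusted p = 0.000101). uba7, the enzyme that activates isg15 for attachment, averaged 31.0 ± 3.29 CPM in GFP-HRAS DMSO and 6.15 ± 3.36 CPM in RFP DMSO (2.34 ± 0.35, adjusted p = 0.000638). Each fell with rapamycin in GFP-HRAS hearts, ciita with a log2 fold change of -3.75 (adjusted p = 0.0026) and uba7 with -1.74 (adjusted p = 0.0129). usp18, which removes isg15 again, rose by 0.77 (adjusted p = 0.0386). socs1b, a feedback inhibitor of the receptor kinases, had 28, 12 and 12 counts in GFP-HRAS DMSO and 0 in all 3 GFP-HRAS rapamycin libraries. Taking a floor of 3 counts over that group, it was at least 12.5-fold lower with rapamycin. Outside GFP-HRAS DMSO no library held more than 4 counts of socs1b. It thus passed the filter only through that group and had to be lower elsewhere, so this fold adds no support. Of a pair of genes with the symbol SOCS3, an inhibitor induced by STAT3, ENSDARG00000026611 rose, with 244 ± 72.6 CPM in GFP-HRAS rapamycin and 66.5 ± 22.5 CPM in GFP-HRAS DMSO (1.87 ± 0.46, adjusted p = 0.0253). The other, ENSDARG00000025428, was not called (2.21 ± 0.92, adjusted p = 0.132).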

How the data were processed

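Messenger RNA of zebrafish ventricles was sequenced with a CORALL library kit that adds unique molecular identifiers, per the labels' protocols. Build GRCz11 and the tools featureCounts 1.6.0, HISAT2 2.1.0 and UMI-tools 1.1.1 are named, without roles, per the submitters' processing notes. Which annotation was used, and whether counting used strand, is not given in the sources used here, so overlapping genes and near-identical paralogues are uncertain. The authors deposited whole-number counts per gene in 2 tables without normalization. Columns named UR were read as UAS:RFP. The labels list 18 samples, and the 3 uninjured ones were not analysed here.

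Counts were tested with edgeR 4.0.16 in R 4.3.3 (TMM scaling, filterByExpr by group, then glmQLFit with glmQLFTest), with 16044 genes in a fit of the 12 transgenic libraries and 16421 genes in a fit of all 15 libraries for the 7 dpci comparisons. Benjamini-Hochberg adjustment ran over all genes of a fit, with calls under 0.05. SE was derived from the fold change and the F statistic. Counting intervals (95%, exact) and floors cover counting error only. DESeq2 1.42.0, library totals as scale, no filter, a replicate block, fits of the 6 compared libraries and leaving out each library were the alternatives. Neighbouring genes and names came from the RefSeq table of GRCz12tu, in which 64 of the 69 symbols matched. No promoter or protein sequence was used here.

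The members and lists were chosen with earlier results of these data known. Per-library values are given for the stat2, irf1, IRF7, irf9, isg15, RSAD2, mx, b2m and tap genes and for the 3 tested genes with the highest mean CPM in every other family, along with the 3 called genes with the largest change in each direction of a comparison. IRF5, irf10, ifi44c2, ifit9, isg20, isg20l2, stat5a, stat6 and irf3 were named after their values were seen in comparisons where that rule did not name them. A few items are not reported here and are not drawn, although counts over the genes include them.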

Additional observations from a re-analysis of the deposited data

How the results depend on the processing

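No called member changed direction under any alternative run, and the cause of lost calls was not tested. Members called higher or lower in each comparison were counted again. GFP-HRAS DMSO against RFP DMSO: library totals left 2 lower of 8, and leaving out 1 library gave 21 to 26 higher and 5 to 11 lower. GFP-HRAS rapamycin against RFP rapamycin, 5 higher and 2 lower: DESeq2 gave 8 and 4, library totals 8 higher, 6 libraries alone 1 and 0, the replicate block 1 lower, and leaving out 1 library 1 to 7 and 0 to 3. Rapamycin in GFP-HRAS, 2 higher and 14 lower: higher calls were 0 with library totals, the replicate block or 6 libraries alone and 1 with no filter, and leaving out 1 library gave 0 to 4 and 9 to 15. The difference between rapamycin effects, 0 lower: DESeq2 gave 12, library totals 5, no filter 1, the replicate block 1, and leaving out 1 library 0 to 4. 7 dpci against RFP DMSO, 10 and 10: library totals gave 6 lower, and leaving out 1 library 6 to 11 and 5 to 11. 7 dpci against GFP-HRAS DMSO: leaving out 1 library gave 2 to 4 higher and 18 to 25 lower. 7 dpci against GFP-HRAS rapamycin, 3 and 9: no filter gave 1 higher, 6 libraries alone 5 lower, and leaving out 1 library 0 to 4 and 2 to 10. Whether replicate numbers pair the samples is not stated in the labels. Of 30 same-numbered pairs, 2 correlated over 0.1, in a range of -0.333 to 0.164. No differently numbered pairs were set beside them, so these values cannot decide it. Calls over all genes moved by over 1.5 times in some settings: with 6 libraries alone to 838 from 2909 (GFP-HRAS against RFP under rapamycin), for rapamycin in GFP-HRAS from 1947 to 3126 with DESeq2, 3472 with library totals, 1271 with the block and 766 with 6 libraries alone, for rapamycin in RFP from 0 to 27 with DESeq2, and for the difference from 8 to 519 with DESeq2, 125 with library totals, 26 with no filter and 44 with the block. Genes under about 1 CPM in a group, such as ifi44a8 in RFP DMSO, have loose fold changes at this depth.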
